A study of Mus musculus with 2 samples.

Results

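The genes described here carry thyroid hormone action in the brain. They are the receptor genes Thra and Thrb, the hormone transporter Slco1c1, the activating enzyme Dio2, the corepressor Ncor1 and the hormone targets Klf9 and Hr. They were chosen by name as a list of 7 genes out of 55536 annotated genes, with earlier results of these data known, and the rule sets no threshold on a measured value. The tissue was the left cerebral cortex of female mice at 25 days of age, and total RNA-seq libraries were made from 300 ng of RNA each, with synthetic ERCC RNAs added as spike-ins. The strain label is B6CASTF1/J, the first-generation cross of C57BL/6 and CAST mice, and no treatment or engineered allele is given in the labels. There are 2 libraries in 1 group, replicates 1 and 2. The labels call the libraries biological replicates 1 and 2 and number the animals separately, but name the same donor for both. The spread between the libraries may thus be biological or technical. With 1 group there was no contrast of conditions and no p-value was computed. An exact sign-flip test on 2 libraries cannot go below 0.5.

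Thyroxine (T4), the main circulating form of thyroid hormone, enters the brain through transporters at the blood-brain barrier and on astrocytes, and the deiodinase made by Dio2 converts it to the active hormone T3, mainly in astrocytes. T3 binds nuclear receptors that sit on DNA with a retinoid X receptor partner. Without hormone these receptors hold corepressors such as NCOR1 at target genes, and with hormone they exchange them for coactivators. Thra makes a form that binds T3 (alpha1) and, by splicing to another last exon, forms that keep the DNA-binding domain but do not bind T3 (alpha2 and the shorter alpha3).

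The libraries held 31191535 and 27079700 expected counts over annotated genes. An expected count is an estimate of the reads of a gene, in which reads that match several places are divided. A count of 0 allows up to 3 counts, or 0.0962 and 0.111 CPM (counts scaled to library size) in replicates 1 and 2, for counting error only. Levels are given as TPM, which is scaled for transcript length. Detected means that each library reached a TPM of 1. Neuronal markers were high, with Camk2a at 1120 ± 24.7 TPM and Slc17a7 at 617 ± 30.8 TPM (SD, n = 2), and all 7 excitatory, all 6 inhibitory, all 10 astrocyte and all 6 microglial markers were detected. Some markers of neighbouring tissue, the myelin markers and the immediate early genes differed between the libraries. The hypothalamic peptide gene Pmch had 482 counts in replicate 1 and 4 in replicate 2, and Hcrt had 120 and 0. Pomc, of the same marker list, had 20 and 19. The 10 striatal markers summed to 622 and 427 TPM, the 9 myelin markers to 1563 and 2462 TPM, and the 10 immediate early genes to 351 and 187 TPM. In these bulk samples, fewer cells of a type and less RNA per cell cannot be told apart.

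All 7 genes were detected, against 58.7% of the 22015 nuclear protein-coding genes. The median member stood at the 75.5th percentile of the detected protein-coding genes by TPM. Thra was the most abundant of the 7, at the 99.0th percentile, and Hr the least, at the 64.7th. In order of mean TPM the genes were Thra, Ncor1, Klf9, Thrb, Slco1c1, Dio2 and Hr, and the FASTQ-based quantification, made directly from the reads, gave the same order of means. Thrb and Slco1c1 overlapped between libraries and did not differ beyond their spread. The order depends on which transcript models share the counts. When all counts of a gene were placed on its longest complete coding model, an alternative added after seeing the data, Ncor1 fell from 122 to 46.7 TPM, below Klf9, and Thrb fell from 36.6 to 17.3 TPM, the lowest of the 7.

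**Figure D1:**
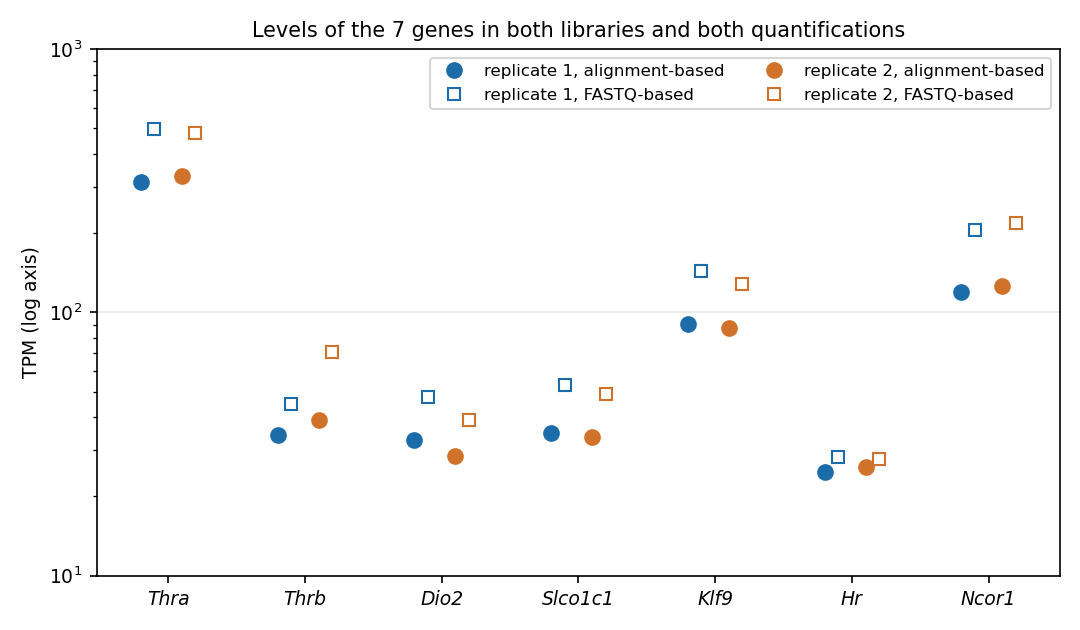
TPM of each gene (log axis) in replicate 1 (blue) and replicate 2 (orange), from the alignment-based (filled circles) and FASTQ-based (open squares) tables. Thra stands highest in every series of points, and the open squares of Ncor1 lie at 205 and 219.7 TPM against filled circles at 119 and 126 TPM.

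Thra (ENSMUSG00000058756.13) lies on chr11:98740638-98769006, plus strand, mm10. The 3 main coding forms share 1110 coding bases and part after the last base they share, at position 98764405. The alpha1 form (ENSMUST00000103139.10) reads through that splice donor for another 120 coding bases and encodes 410 residues. The alpha2 form (ENSMUST00000064187.11) is spliced to a distant last exon, adds 366 coding bases and encodes 492 residues. The alpha3 form (ENSMUST00000124072.1) uses an acceptor 117 bases further into the same last exon, and its annotated model is incomplete. The sequences below run across the junction, with the part that differs between the forms in capitals. They are shown because these bases decide whether a transcript was counted as hormone-binding. They come from GENCODE M21 transcripts on mm10, plus strand, in blocks chr11:98764382-98764441 for alpha1, chr11:98764382-98764405 joined to chr11:98768157-98768192 for alpha2, and the same first block joined to chr11:98768274-98768309 for alpha3.
Thra alpha1: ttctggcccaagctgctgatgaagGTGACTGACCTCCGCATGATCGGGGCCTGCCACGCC
Thra alpha2: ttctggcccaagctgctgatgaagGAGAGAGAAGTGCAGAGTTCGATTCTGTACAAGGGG
Thra alpha3: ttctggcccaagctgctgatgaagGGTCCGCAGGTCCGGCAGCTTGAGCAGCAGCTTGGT

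Most Thra RNA in this cortex was of the forms that do not bind hormone. Thra as a gene had 12910 and 11312 counts and 314 and 330.1 TPM in replicates 1 and 2. The non-binding forms had 258 and 261 TPM, which was 82.1% and 79.2% of the gene (80.6% ± 2.08, SD, n = 2). The hormone-binding alpha1 form had 40.3 and 48.8 TPM, or 12.8% and 14.8% (13.8% ± 1.36). The other 6 models, short or non-coding, made up 5.53% ± 0.72. Within the non-binding class, alpha2 itself took 60.8% and 58.1% of the gene and alpha3 took 21.3% and 21.1%. The alpha3 share depends on the measure. By expected counts alpha2 took 71.0% and alpha3 12.3% on average, and by FASTQ-based TPM alpha3 took 18.1% and 14.3%. The ratio of non-binding to alpha1 TPM was 5.85-fold (log2 ratio 2.68 in replicate 1 and 2.42 in replicate 2). Both libraries put the non-binding forms well above alpha1, and the gap was many times the spread between them.

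The alpha1 share was higher in replicate 2 in every measure taken. It was 13.3% and 15.2% of FASTQ-based TPM and 13.9% and 16.2% of expected counts. The scaled count of alpha1 was 58.4 CPM in replicate 1 and 66.7 CPM in replicate 2, a ratio of 1.14 (95% interval 1.07 to 1.22, counting error only). That of the non-binding forms was 355 and 338 CPM, a ratio of 0.952 (0.926 to 0.979). Assignment of shared reads between forms adds error that these intervals leave out. The bounds on alpha1 in the authors' deposited table, whose level the file does not state, were 35.9 to 41.9 TPM in replicate 1 and 43.6 to 50.5 TPM in replicate 2, which do not overlap. With 2 libraries this difference was not tested.

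The last exon of alpha2 lies over the 3′ end of Nr1d1 (REV-ERB alpha, a repressor of the circadian clock), which is transcribed from the opposite strand. Exons of its main model overlapped 263 bases of the alpha2 model, 130 bases of the alpha3 model and 0 bases of the alpha1 model. Nr1d1 had 2771 and 2546 counts and 53.0 and 57.1 TPM, well below Thra as a gene in both libraries. The annotated last exon of alpha3 lies wholly within an Nr1d1 exon. Alpha3 had 1585 and 1390 counts, fewer than Nr1d1, and 66.8 and 69.7 TPM. The sources used here do not say whether the authors' counting used strand, and without it reads from the overlap cannot be told apart. Only the non-binding forms are exposed to this overlap. The alpha1 form has another limit. Its 706 own bases follow the shared donor directly and lie in the intron that alpha2 and alpha3 remove. In total RNA, unspliced Thra RNA could thus be counted there as alpha1, which was not measured.

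**Figure D2:**
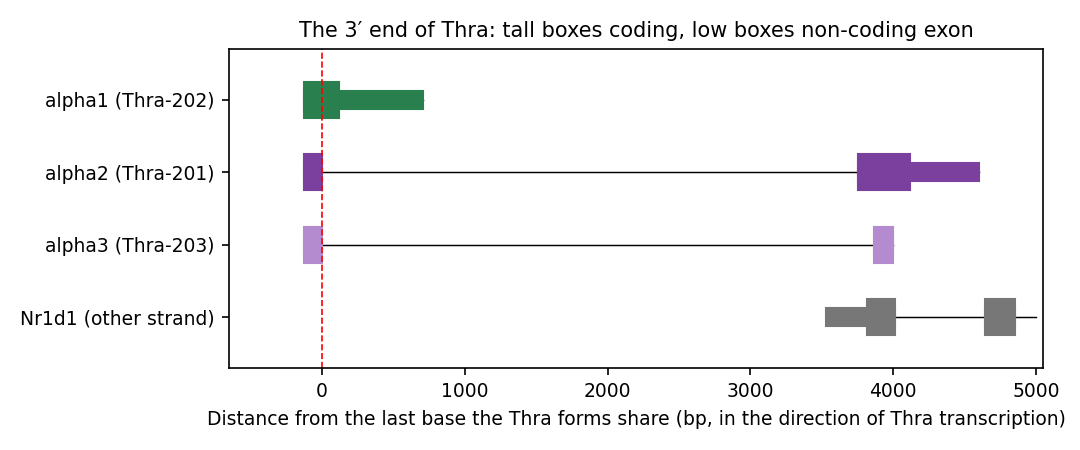
Exons at the 3′ end of Thra and of Nr1d1 against the distance in bp from the last base that the Thra forms share (dashed line at 0), with coding parts as tall boxes and non-coding parts as low boxes. Alpha1 continues for 706 bp past the line, alpha2 resumes at 3752 bp and alpha3 at 3869 bp, where both overlap an Nr1d1 exon.

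Thrb (ENSMUSG00000021779.17; chr14:17660261-18038090, plus strand) makes hormone-binding receptors from several starts. The beta1 start gives a protein of 461 residues, and the beta2 start, known best from pituitary, hypothalamus, retina and cochlea, gives 475. They differ in the first coding part, shown here in capitals up to the shared exon, because the complete beta1 and beta2 models part there. The beta1 class below also holds incomplete models (ENSMUST00000224470.1 and ENSMUST00000224597.1) that end before these bases, at positions 17963125 and 17963244. Blocks are chr14:17963286-17963321 for beta1 and chr14:17982166-17982201 for beta2, each joined to chr14:18002528-18002551, plus strand, from GENCODE M21 transcripts on mm10.
Thrb beta1: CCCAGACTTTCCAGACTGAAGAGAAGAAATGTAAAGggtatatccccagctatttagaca
Thrb beta2: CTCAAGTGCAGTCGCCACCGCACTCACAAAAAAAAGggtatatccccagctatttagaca

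Thrb was far lower than Thra, with 2209 and 1839 counts and 34.3 and 39.0 TPM (36.6 ± 3.32). Its FASTQ-based TPM spread more widely, at 44.8 and 70.8. Models with the beta1 start took 51.2% and 50.9% of Thrb TPM, and the single beta2 model (ENSMUST00000022304.9) took 31.8% and 27.2%. Of the beta1 class, the complete models ENSMUST00000022303.14 and ENSMUST00000091471.11 took 15.9% and 14.7%, and 18.2% and 10.5%. An incomplete model of 426 bases (ENSMUST00000224597.1) took 15.2% and 22.6% from 35.5 and 50.4 counts. Together the complete beta1 models stood above the beta2 model in replicate 1 and below it in replicate 2. An incomplete model classed as another start (ENSMUST00000224934.1) took 8.78% and 14.2%. By expected counts the order of the classes was reversed, with 34.0% ± 0.44 for the beta1 start and 62.1% ± 0.80 for the beta2 model. The beta2 model is the longest of the gene, and its annotated 3′ end runs 1531 bases beyond that of the longest beta1 model, which is 24.7% of its length. Reads from that stretch are assigned to the beta2 model whichever start they came from, so its share is not a measure of the beta2 start alone. In the FASTQ-based table the leading Thrb model changed from the beta2 model in replicate 1 to an incomplete model of 375 bases (ENSMUST00000224470.1) in replicate 2. By share of TPM in the 2 libraries and both quantifications, Thrb was the only one of the 7 genes whose leading model changed.

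**Figure D3:**
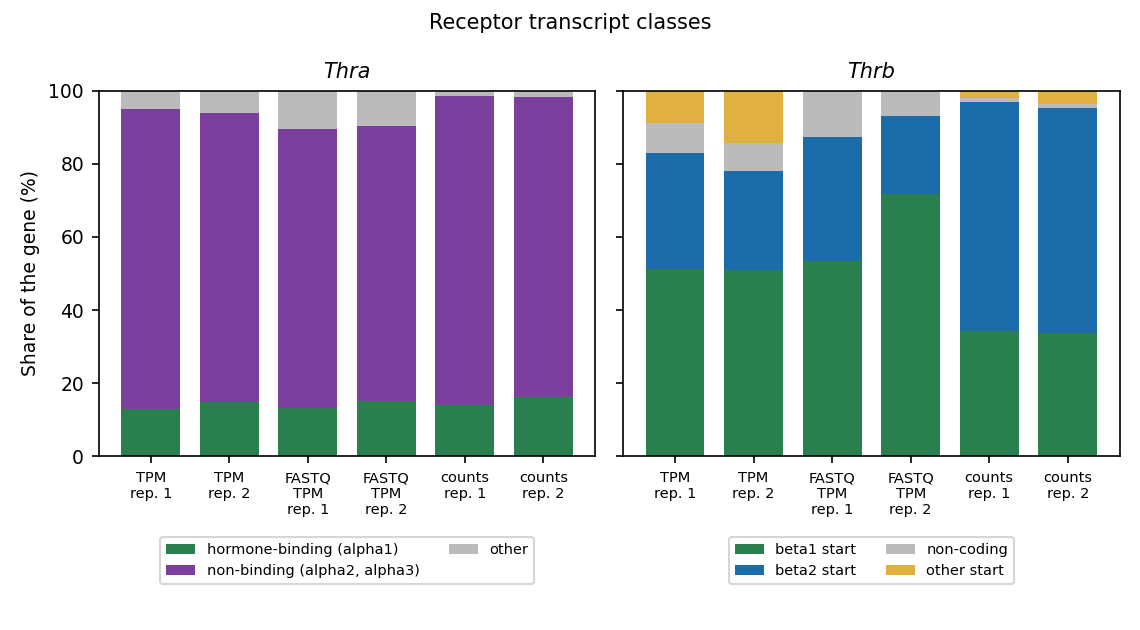
Share of each receptor gene (%) by transcript class, as stacked bars for replicates 1 and 2 in alignment-based TPM, FASTQ-based TPM and expected counts. The non-binding class of Thra lies between 75.2% and 84.6% in all bars, while the Thrb classes exchange order between TPM and counts.

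Within each library Thra exceeded Thrb. The ratio of TPM was 8.80-fold (log2 ratio 3.19 in replicate 1 and 3.08 in replicate 2), 5.996-fold by counts and 15.5-fold on the longest complete coding models. The alpha1 form alone was close to Thrb. Alpha1 over Thrb, a pair added after seeing the data, was 1.21-fold by TPM (log2 ratio 0.28 ± 0.06), 0.901-fold by counts and 2.56-fold on the longest model of Thrb, so the files do not settle which was higher. Of the retinoid X receptors, which form the heterodimers, Rxrb was the highest at 36.2 and 41.6 TPM. Rxra followed at 9.25 and 8.48 TPM, and Rxrg was at 8.41 and 6.24 TPM. Rxrb exceeded Rxrg 5.36-fold (log2 ratio 2.11 and 2.74), and all 5 genes of the receptor and partner list were detected.

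Slco1c1 (ENSMUSG00000030235.17; chr6:141524368-141570177, plus strand) encodes OATP1C1, a T4 transporter of brain capillaries and astrocytes. It had 1851 and 1497 counts and 34.8 and 33.6 TPM (34.2 ± 0.82). Most of it was assigned to a model that is labelled for nonsense-mediated decay, the removal of RNAs with an early stop codon. This model (ENSMUST00000135562.7) took 64.6% and 65.2% of the gene's TPM, and 64.3% and 66.7% of its FASTQ-based TPM. Another decay-labelled model (ENSMUST00000204998.2), of 46 codons, took 11.3% and 8.8% of TPM, and 19.1% and 12.1% of FASTQ-based TPM. Complete coding models took 22.3% and 22.2%, of which ENSMUST00000205214.2 had 15.2% ± 0.78 and the longest, ENSMUST00000032362.11, 7.07% ± 0.85. The leading decay-labelled model skips the first 41 bases of exon 11 by a later acceptor. This changes the reading frame and leaves 469 codons against 715 in the longest model. The 41 bases, in capitals below, are the sequence that separates the models at this exon. Blocks are chr6:141555164-141555187 joined to chr6:141559741-141559797 for the longest coding model and to chr6:141559782-141559797 for the leading decay-labelled model, plus strand, from GENCODE M21 transcripts on mm10.
Slco1c1 longest coding model: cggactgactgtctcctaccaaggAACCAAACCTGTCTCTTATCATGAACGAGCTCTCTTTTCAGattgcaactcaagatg
Slco1c1 decay-labelled model: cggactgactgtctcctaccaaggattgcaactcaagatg
The models also differ elsewhere, since the coding model runs 457 bases further at its 3′ end. The files hold assigned counts and not junction reads, so use of this acceptor was not measured directly.

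All 9 transporter and carrier genes were detected. The amino acid transporters that also carry thyroid hormone were present in both libraries. Slc3a2, the shared heavy chain, had 64.5 and 69.6 TPM. Slc7a5 (LAT1) had 33.2 TPM in each library and Slc7a8 (LAT2) 23.5 and 29.2 TPM. Crym, a cytosolic protein that binds T3, had 40.5 and 39.5 TPM. Slc16a10 (MCT10) was lowest at 1.48 and 1.65 TPM. Endothelial markers, which stand beside these transporters, summed to 153 and 147 TPM over 10 genes, while 6 of the 10 were higher in replicate 2 by CPM.

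Transthyretin (Ttr), a T4 carrier made by the choroid plexus, differed more than any other pathway gene with a mean CPM of at least 5. It had 2172 counts in replicate 1 and 91 in replicate 2, and 96.0 and 4.79 TPM. This was 21.3-fold higher in replicate 1 (95% interval 17.2 to 26.5, counting error only). The other 6 choroid plexus markers summed to 6.88 and 3.70 TPM, and all 6 were higher in replicate 1 by CPM. Their part in the Ttr difference was not tested.

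Dio2 (ENSMUSG00000007682.6; chr12:90724552-90738438, minus strand) encodes the type 2 deiodinase. Its active site holds selenocysteine, which is read from a TGA codon that would otherwise stop translation. The annotated coding sequence has 266 codons and 2 in-frame TGA codons, at 130 and 263, before its TAG stop. The first of them is shown in capitals in its context, from GENCODE M21 transcripts on mm10, chr12:90729793-90729855, minus strand, to mark the codon on which hormone activation depends.
Dio2 codon 130: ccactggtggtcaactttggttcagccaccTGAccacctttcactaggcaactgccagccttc
Dio2 had 3885 and 2846 counts and 32.7 and 28.5 TPM (30.6 ± 2.94). It has a single annotated model, so no transcript shares enter its level. A gene of the annotation, Gm26512, overlaps it by 238 bases and had 2.05 and 3.05 TPM.

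RNA of the activating deiodinase far exceeded that of the inactivating one. Dio3, which inactivates T4 and T3, had 55 and 31 counts and 1.49 and 0.94 TPM, under the detection threshold in replicate 2. Dio2 exceeded Dio3 25.8-fold by TPM (log2 ratio 4.45 and 4.92) and 80.5-fold by counts. Dio1, the deiodinase of liver and kidney, had 0 counts in both libraries. Of the genes for selenoprotein synthesis in this list, all 4 were detected. Pstk, which phosphorylates the transfer RNA that carries the residue, had 23.3 and 23.3 TPM, Eefsec, the elongation factor for it, 9.72 and 10.5 TPM, and Secisbp2, which binds the signal in the RNA, 8.87 and 9.0 TPM. Usp33, which removes ubiquitin from the deiodinase, had 60.1 and 66.1 TPM.

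Dio2 was the member that differed most between the libraries. Its scaled count was 126 CPM in replicate 1 and 104 CPM in replicate 2, 1.22-fold higher in replicate 1 (95% interval 1.16 to 1.28, counting error only). The log2 ratio of replicate 2 over replicate 1 was -0.28, and 5.01% of the 11721 genes compared had a lower one. The astrocyte markers did not move as a list, with 6 of 10 higher in replicate 1 and a median log2 ratio of -0.04. Within that list Aqp4 was at -0.27 and Gjb6 at -0.33, while Slc1a2, the highest of the list, was at 0.12. Of 6 tanycyte and ependymal markers 3 were detected, and the 5 other than Crym summed to 10.33 and 10.75 TPM. Among them Rax had 0 expected counts in both libraries, and 1.04 and 2.11 counts in the FASTQ-based table. The part of astrocytes or tanycytes in the Dio2 difference was not tested.

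Ncor1 (ENSMUSG00000018501.17; chr11:62316426-62458541, minus strand) encodes the corepressor that receptors hold without hormone. It had 8253 and 7663 counts and 119 and 126 TPM (122 ± 4.61). The annotation splits it into 25 models, of which 15 are incomplete. The leading model (ENSMUST00000155486.7) is incomplete and took 19.6% and 17.4%, and the longest complete one (ENSMUST00000018645.12), of 2454 codons, took 10.8% and 12.2%. By expected counts the order was reversed, with 8.68% ± 1.01 for the leading model and 30.2% ± 1.72 for the longest complete one. Complete coding models took 26.5% ± 0.74 of Ncor1 TPM.

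The partners of the corepressor were all present. All 7 genes of the corepressor complex list were detected, with a median of 36.8 TPM. Tbl1xr1, a subunit that helps exchange corepressor for coactivator, had 60.6 and 61.5 TPM, and the histone deacetylase Hdac3 had 36.6 and 37.0 TPM. All 8 coactivators were detected, between 16.1 and 44.8 TPM on average. Ncoa1 was highest at 42.9 and 46.6 TPM, followed by Ncoa2 at 37.4 and 39.8 TPM, Crebbp at 36.6 and 40.2 TPM and Ncoa6 at 28.4 and 32.9 TPM.

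Klf9 (ENSMUSG00000033863.2; chr19:23141226-23168134, plus strand), a Krüppel-like transcription factor induced directly by T3, had 8092 and 6525 counts and 90.5 and 87.2 TPM (88.9 ± 2.31). Its coding model took 97.3% and 96.8% of TPM, and 85.8% and 88.5% of FASTQ-based TPM. Hr (ENSMUSG00000022096.14; chr14:70552212-70573548, plus strand), the hairless corepressor and another direct target, had 2190 and 1913 counts and 24.7 and 25.9 TPM (25.3 ± 0.85). Its leading model (ENSMUST00000022691.13), of 1182 codons, took 76.2% and 75.9%. A non-coding model of 321 bases took 20.9% and 17.9% of TPM from 23.9 and 18.0 counts, and was at 0 in the FASTQ-based table. Klf9 exceeded Hr 3.51-fold (log2 ratio 1.87 and 1.75). Klf9 also responds to glucocorticoids. Genes of the glucocorticoid list, led by Mt2 at 199 and 172 TPM and Tsc22d3 at 58.6 and 40.9 TPM, were higher in replicate 1 in 7 of 8 cases, with a median log2 ratio of -0.26. Klf9 itself was at -0.14. The part of that list in the Klf9 value was not tested.

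All 14 genes reported to be induced by T3 were detected, with a median of 24.8 TPM. Neurogranin (Nrgn), a calmodulin-binding protein of dendrites, was the highest at 992 and 1063 TPM. Mbp, a main protein of myelin, had 586 and 903 TPM, and Camk4, a calcium-dependent kinase, had 93.7 and 97.9 TPM. Of 8 genes reported to be repressed, 6 were detected, with a median of 3.88 TPM. The cold-inducible RNA-binding protein Cirbp was highest, at 33.7 and 41.2 TPM, followed by the collagen gene Col6a1 at 19.9 and 23.97 TPM, Agbl3 at 6.79 and 7.39 TPM and Col6a2 at 4.39 and 5.09 TPM. Both lists come from general knowledge of the field, and basal levels do not show hormone status. Of the 10 genes of the hypothalamic, pituitary and thyroid axis, 4 were detected and none had a mean above 3.53 TPM. Tshb, Cga and Pax8 had 0 expected counts in both libraries. The FASTQ-based table also had 0 for Cga, but gave Tshb 21.01 and 18.08 counts and Pax8 0 and 4 counts. The 4 detected were Slc5a5 at 3.57 and 3.48 TPM, Trhr2 at 3.14 and 3.37 TPM, Trhr at 2.42 and 1.10 TPM, and Trh at 1.42 and 1.07 TPM.

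**Figure D4:**
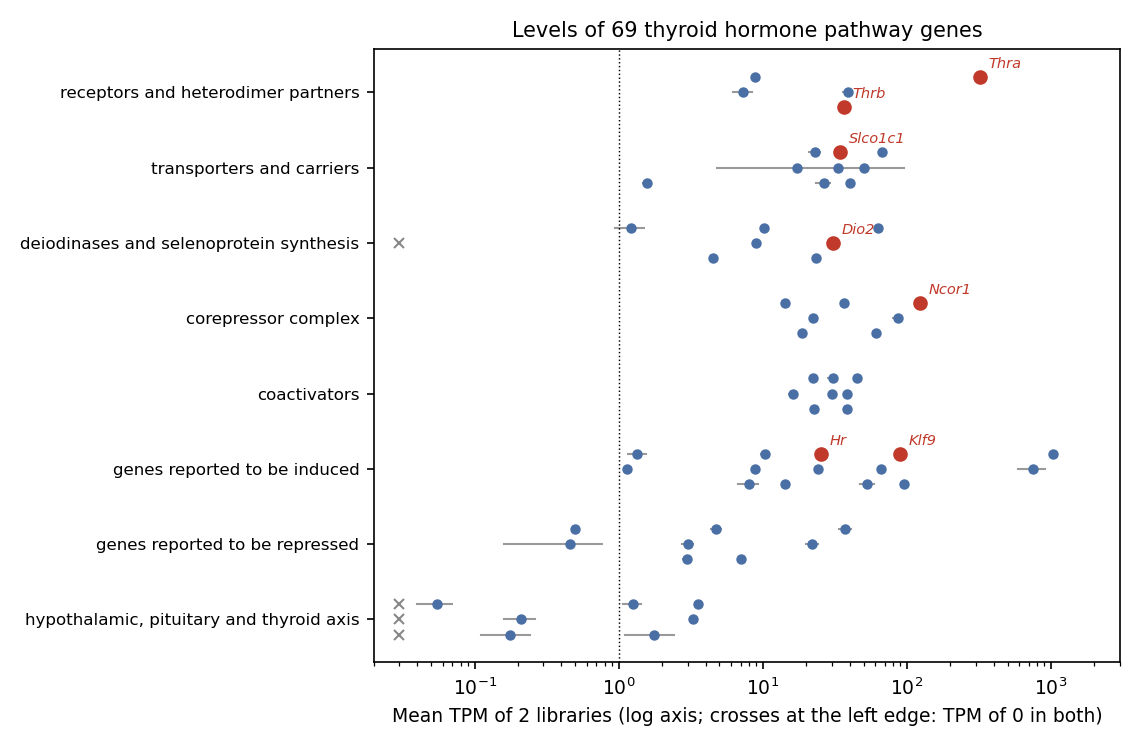
Mean TPM over 2 libraries (log axis) of 69 pathway genes by role, with lines joining the libraries' values, the 7 genes described in full in red, and the detection threshold of 1 TPM dotted. Receptors, corepressors and coactivators have means above 7 TPM, and the axis genes lie at or below 3.53 TPM.

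Between the libraries none of the 7 genes differed 2-fold. A gene was compared at a mean CPM of at least 5 and called at a 2-fold difference, which 0.196% of the 11721 genes compared met with the higher value in replicate 1 and 0.0597% with the higher value in replicate 2. At 1.5-fold the shares were 0.828% and 0.691%, and still 0 of the 7 genes were called. Log2 ratios of CPM, replicate 2 over replicate 1, ran from -0.28 for Dio2 to 0.06 for Ncor1. Slco1c1 and Klf9 were both at -0.14, Thrb at -0.10, Hr at -0.03 and Thra at -0.02. Counting error alone left 5 of the 7 intervals without a ratio of 1, and 2, those of Thra and Hr, with it. By CPM 6 of the 7 were higher in replicate 1, and so were 60.0% of all genes compared, whose median log2 ratio was -0.03. Scaling by library size alone put Thra and Hr slightly higher in replicate 2 and left 4 of 7 higher in replicate 1. Scaling to the spike-in total put all 7 higher in replicate 1, with the median of all genes at -0.11.

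Of the 51 pathway genes compared, Ttr was the single call at 2-fold and at 1.5-fold. The receptor and partner list had 5 of 5 genes higher in replicate 1 and a median log2 ratio of -0.10. Coactivators had 2 of 8 higher in replicate 1, with a median of 0.03. The corepressor complex had 3 of 7, with a median of 0.02. Transporters had 5 of 8, with a median of -0.08, and deiodinases and selenoprotein synthesis 4 of 6, with a median of -0.02. Induced genes had 8 of 11, with a median of -0.04, and repressed genes 1 of 5, with a median of 0.19. Over all 8 repressed genes, on the log2(CPM + 1) scale, the median was 0.04. None of these counts came from a test.

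Among the pathway genes with a mean CPM of at least 5, the widest differences after Ttr were those of Rxrg, Mbp and Rasd2. Rxrg, which is most abundant in striatum, had 342 and 207 counts, 1.47-fold higher in replicate 1 (95% interval 1.23 to 1.76, counting error only). Rasd2, a striatum-enriched GTPase, had 58.9 and 47.5 TPM and a log2 ratio of -0.39. The other 9 striatal markers, led by Ppp1r1b at 166 and 115 TPM and Penk at 114 and 70.9 TPM, summed to 563 and 380 TPM and were higher in replicate 1 in 9 of 9 cases. Mbp had a log2 ratio of 0.51. The other 8 myelin markers, among them Mobp at 169 and 268 TPM, summed to 977 and 1559 TPM and were higher in replicate 2 in 8 of 8 cases. The part of striatal tissue or of myelinating cells in these values was not tested. Below that CPM, Trhr, the receptor for thyrotropin-releasing hormone, had 170 and 66 counts, 2.29-fold higher in replicate 1 (95% interval 1.72 to 3.10, counting error only). The 6 hypothalamic markers other than Trh summed to 58.3 and 2.14 TPM. By CPM 4 of them were higher in replicate 1 and 1 in replicate 2, and only 1 was detected. The part of these markers in the Trhr value was not tested.

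**Figure D5:**
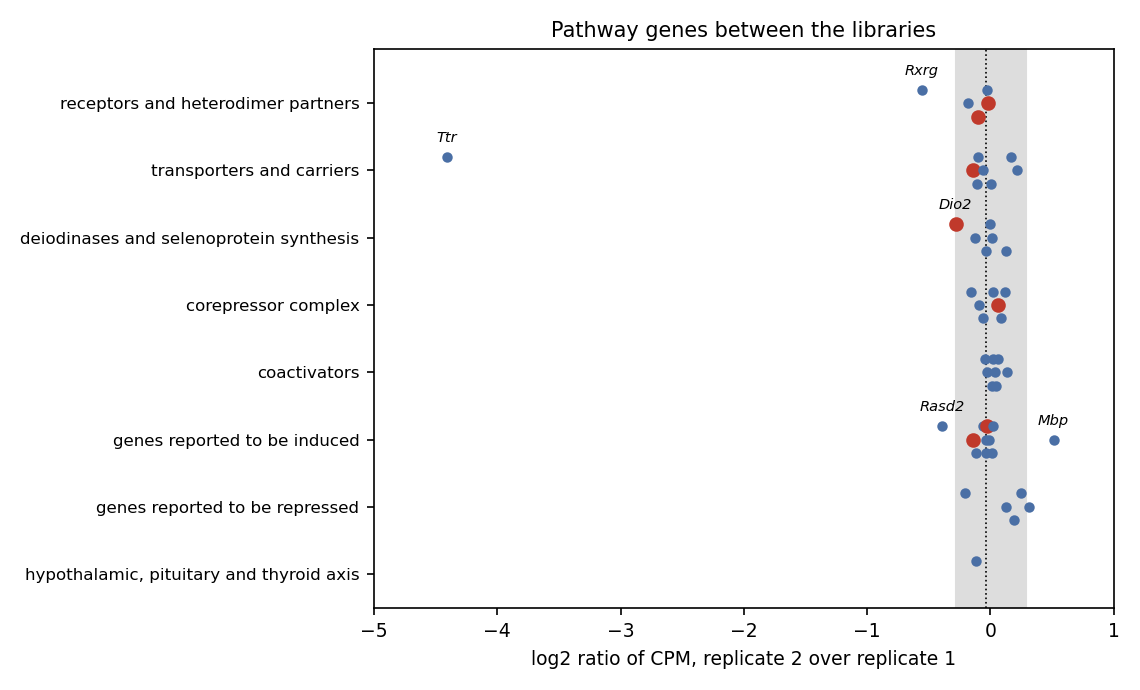
Log2 ratio of CPM, replicate 2 over replicate 1, for the 51 pathway genes with a mean CPM of at least 5, by role, with the 7 genes described in full in red. The grey band spans the 5th to 95th percentile of all genes compared (-0.28 to 0.28) and the dotted line marks their median. Ttr lies at -4.41, and Dio2 at the lower edge of the band.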

How the data were processed

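The 2 total RNA-seq libraries of left cortex, 1 group, were analysed from the authors' deposited tables on mm10 with GENCODE M21. Which programs aligned and quantified the reads is not given in the sources used here. Per the file headers, the authors deposited an expected count and TPM per gene and per transcript, and a percent of the gene's TPM per transcript (alignment-based), and an estimated count and TPM per transcript (FASTQ-based). FASTQ-based values were summed per gene here. The authors' deposited bounds on TPM, a score from the quantifier whose level is not stated, were used as given.

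Symbols and models came from GENCODE M21. Of 81881 entries per library, 55536 matched its genes, and only these were used as genes. Expected counts were rounded for edgeR 4.0.16 in R 4.3.3, whose TMM factors (0.987 and 1.01) scaled CPM, and no test was run with it. DESeq2 1.42.0 size factors were an alternative. Count ratios carry exact 95% intervals for counting error only, since reads without molecular identifiers are not independent molecules. The remaining steps ran in Python 3.11.15 with scipy 1.17.1, pandas 2.3.3 and matplotlib 3.10.9.

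Thra transcripts were classed from their coding sequence: ending past the shared donor as hormone-binding, spliced to the distant last exon as non-binding, the rest as other. The members and the 8 pathway and 12 marker lists were chosen with earlier results of these data known. Named were all members, every called pathway gene, up to 4 highest genes of each pathway list, up to 2 of a marker list beside a result, pairs of genes, and transcripts of at least 5%. Some genes and pairs under this rule are not reported here. Further genes (such as Rasd2, Aqp4 and Hcrt) were chosen after their values were seen. No protein sequences were used here.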

Additional observations from a re-analysis of the deposited data

How the results depend on the processing

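No paired analysis was possible because the libraries form 1 group. Differences between libraries need both, so none was computed without one. Alternatives on the longest complete coding model, without alpha3, without Ttr, and the alpha1/Thrb pair were chosen after seeing the data. The percentile of the median member (75.5) was 87.1 by CPM without length, 77.1 by TPM over nuclear protein-coding genes and 70.7 on the longest coding model, and 74.9 to 77.2 with 1 library left out. The non-binding share of Thra (80.6%) was 75.7% by FASTQ-based TPM, 83.3% of expected counts, 85.4% of alpha1 plus non-binding forms alone and 75.4% without alpha3, when the alpha1 share (13.8%) became 17.5%. The beta2 model's share of Thrb counts was 62.1%. The leading decay-labelled Slco1c1 model's share was 65.5% by FASTQ-based TPM and 65.6% of counts. Leaving out 1 library gave 79.2% to 82.1% non-binding and 12.8% to 14.8% alpha1. It gave 27.2% to 31.8% for the Thrb beta2 model and 64.6% to 65.2% for the leading decay-labelled Slco1c1 model.

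By CPM without length the log2 ratios were 2.58 for Thra/Thrb, 6.33 for Dio2/Dio3 and 0.063 for Slc7a5/Slc7a8 (0.34 by TPM), and alpha1/Thrb turned to -0.15. By FASTQ-based TPM Klf9/Hr was 2.27. On the longest coding model Thra/Thrb was 3.96 and alpha1/Thrb 1.36. The causes were not tested. For single genes, transcripts and lists, 83 alternative values stayed within the SD (for members' differences between libraries, within the counting interval) and 32 moved. For list medians this was the SD over the genes of the list, not between libraries. A value with 1 library left out always lies within the SD of 2 libraries. The count of 83 is thus not a measure of stability. Hr is among the 83 although its log2 ratio changed sign to 0.0088 by library size alone. Among those that moved were the FASTQ-based TPM of all 7 members and their TPM over nuclear protein-coding genes, both higher in each. Over nuclear protein-coding genes Thra was at 705 TPM against 322, so absolute TPM depends on which entries are counted. With no filter on low counts, 4 pathway genes were called in place of 1 (Trhr, Odf4 and Tg besides Ttr). With the filter kept and Ttr left out, 0 were called. The 59 detected pathway genes became 54 to 60 over all thresholds, quantifications and single libraries tried.

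Depth limits the low genes: Dio3, with 55 and 31 counts, has an interval that reaches a ratio of 1.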
